A study of Mus musculus with 12 samples.

Results

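The genes described are 9 receptors that steer helper T cells to and within tissues: Ccr4, Ccr6, Ccr7, Ccr8, Cxcr3, Cxcr4, Cxcr5, Cxcr6 and Gpr15. They were taken by symbol from the 45703 genes of the deposited tables, and all 9 were found in both. RNA was measured in 12 libraries of cultured mouse CD4+ T cells on the C57BL/6 background, 3 in each of 4 groups: wild-type Th17, Slc2a3-fl/fl Cd4-cre Th17, wild-type Th1 and Slc2a3-fl/fl Cd4-cre Th1. In the Slc2a3-fl/fl Cd4-cre cells, called GLUT3-deficient here, a Cre recombinase under the control of Cd4 acts on a floxed Slc2a3, the gene of the glucose transporter GLUT3. All cells had started as naive T cells and had been cultured for 3 days with stimulation of CD3 and CD28 under Th17 or Th1 cytokine conditions. The labels do not say whether the wild-type cells carried a floxed allele or Cre, nor whether replicates came from separate animals or cultures, so the spread behind each p-value may be technical.

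Chemokine receptors are G protein-coupled receptors that make a cell migrate towards the source of its ligand. Helper T cell lineages differ in the set they carry. CCR7 guides naive and central memory cells into lymph nodes, CCR6 marks Th17 cells and answers to CCL20, CXCR3 marks Th1 cells and answers to CXCL9, CXCL10 and CXCL11, and CXCR5 leads cells into B cell follicles. CCR4 and CCR8 are common on Th2 and regulatory T cells and take part in homing to skin, CXCR6 binds the membrane-bound chemokine CXCL16, CXCR4 binds CXCL12, and GPR15 directs T cells to the large intestine.

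Values are TPM, a unit that corrects reads for the length of a gene's exons and gives every library an equal total, so levels of different genes can be compared. Differences were tested with limma on log2(TPM + 1) over all genes, with Benjamini-Hochberg adjustment and a threshold of 0.05. The targeted gene stood at 44.6 to 379.3 TPM in the Th17 and 64.7 to 397.7 TPM in the Th1 wild-type libraries, and at 3.30 to 18.7 and 4.49 to 7.97 TPM in the deficient ones, as the genotype labels say. Libraries held 16596283 to 28496606 reads, recovered from the TPM values. Th17 GLUT3-deficient replicate 2 lay furthest from its group, with a median absolute log2 difference of 0.62 over genes against 0.14 to 0.42 in the other 11 libraries. All 6 general T cell markers looked up (Cd3e, Cd3d, Cd4, Trac, Trbc1 and Cd28) were present in every group, with summed levels of 4217 to 6114 TPM. Gamma delta T cell markers (Trdc, Trgc1, Trgc2, Trgc4, Trdv4) summed to 14.6 to 33.6 TPM in wild-type libraries and to 166 to 276 TPM in deficient libraries of either lineage. In bulk RNA, a change in the share of cells that carry a receptor and a change in its RNA per cell cannot be told apart.

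The upstream sequences of 3 receptors that mark a lineage are shown because the wild-type lineages differed in these genes most. RefSeq promoter windows of GRCm38.p6 were matched for 7 of the 9 genes. The 250 bases before the start are printed 5′ to 3′ on the strand of the gene for Ccr6 (chr17:8235793-8236042, + strand), Gpr15 (chr16:58718873-58719122, - strand) and Cxcr3 (chrX:101734148-101734397, - strand). Capitals mark a match to ANTAGGTCA, an element of nuclear receptors, on either strand.
Ccr6: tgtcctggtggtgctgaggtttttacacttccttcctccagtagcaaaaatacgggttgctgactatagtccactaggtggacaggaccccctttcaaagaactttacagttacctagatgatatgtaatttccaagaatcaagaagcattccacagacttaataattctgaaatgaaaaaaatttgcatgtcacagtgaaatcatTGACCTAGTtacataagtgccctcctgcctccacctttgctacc
Gpr15: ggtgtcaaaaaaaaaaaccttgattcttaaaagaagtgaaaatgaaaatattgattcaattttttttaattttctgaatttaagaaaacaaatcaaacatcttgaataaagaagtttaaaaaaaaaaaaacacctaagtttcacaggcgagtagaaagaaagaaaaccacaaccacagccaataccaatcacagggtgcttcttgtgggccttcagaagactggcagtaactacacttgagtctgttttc
Cxcr3: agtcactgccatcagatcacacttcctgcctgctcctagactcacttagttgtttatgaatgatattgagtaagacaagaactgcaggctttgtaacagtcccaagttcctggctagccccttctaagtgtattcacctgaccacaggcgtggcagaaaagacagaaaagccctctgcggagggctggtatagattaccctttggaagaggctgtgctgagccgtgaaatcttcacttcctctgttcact

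The Ccr6 window, the first of 2 listed for the gene, held 1 match to ANTAGGTCA, on the reverse strand and beginning 44 bases before the start. The second Ccr6 window held no match to it. ANTAGGTCA was the rarest of the elements looked for, and not all of these are reported here. Of all 32851 RefSeq windows of this length, 0.548% held its letters. The match in the first Ccr6 window contains the shorter element AGGTCA, which 14.0% of the windows held. That window also held 2 matches to the gamma-activated site TTCNNNGAA, 120 and 157 bases before the start, found in 7.02% of windows. The AP-1 site TGANTCA, found in 6.75% of windows, matched in the Gpr15 and Ccr4 windows. None of the 7 genes' windows held the T-box element GGTGTGA on either strand, which 3.33% of all windows held. Such matches describe the letters of these windows and were not tested for binding.

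Gpr15 and Ccr6 separated the wild-type lineages most among the 9 receptors. Gpr15 stood at 68.8, 107.5 and 121.8 TPM in wild-type Th17 libraries and at 3.5, 3.62 and 2.74 TPM in wild-type Th1 libraries. The groups were far apart, with a ratio of means of 30.3 and a log2 fold change of 4.52 ± 0.27 (SE; limma adjusted p = 2.18e-06). Ccr6 stood at 22.4, 23.8 and 24.7 TPM in wild-type Th17 and at 1.14, 1.19 and 1.69 TPM in wild-type Th1, where it rested on 48 to 74 reads. Its log2 fold change was 3.40 ± 0.18 (limma adjusted p = 5.71e-07).

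Cxcr3 lay in the opposite direction. It reached 47.3, 88.5 and 45.4 TPM in wild-type Th1 libraries and at 4.65, 10.2 and 7.92 TPM in wild-type Th17 libraries, a log2 fold change of -2.82 ± 0.31 for Th17 against Th1 (limma adjusted p = 0.000224). Ccr4 was the third receptor that was higher in Th17, at 67.4, 60.1 and 58.6 TPM against 25.6, 19.6 and 16.7 TPM, with a log2 fold change of 1.56 ± 0.19 (limma adjusted p = 0.000483). In all, 4 of the 9 receptors passed the test between wild-type lineages, 3 higher and 1 lower in Th17, where 3.63% of all 14579 tested genes passed, 1.85% higher and 1.78% lower. For 7 of the 9 the groups did not overlap, against 26.7% of all tested genes. The calls of these 4 held in each of the 12 fits that left out 1 library.

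The other 5 receptors did not pass between the wild-type lineages. Ccr8 stood at 53.3, 42.3 and 45.7 TPM in Th17 and 33.6, 20.3 and 23.5 TPM in Th1 (limma adjusted p = 0.0704), with groups that did not overlap. Cxcr6 stood at 32.2 to 35.6 TPM in Th17 and 49.5 to 54.7 TPM in Th1, also without overlap (limma adjusted p = 0.297). The spread is estimated over all 12 libraries, and without Th17 GLUT3-deficient replicate 2 the limma adjusted p was 0.0294 for Ccr8 and 0.0349 for Cxcr6. That of Ccr8 was 0.0379 without wild-type Th1 replicate 1. Ccr7, Cxcr4 and Cxcr5 had log2 fold changes of 0.45, 0.26 and -0.59, with 95% intervals that included 0.

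**Figure D1:**
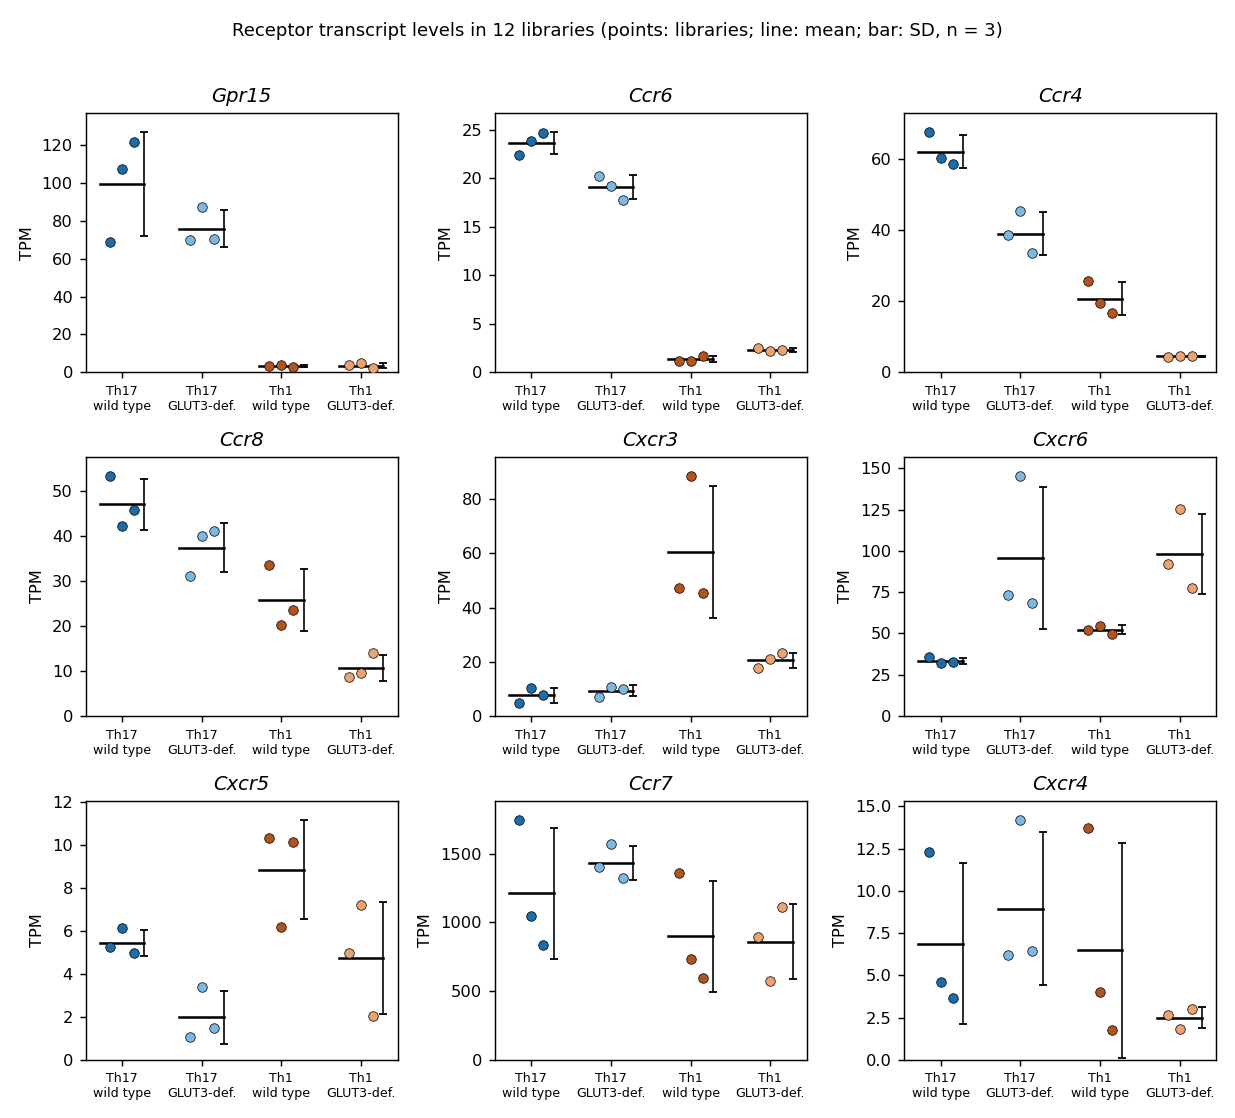
TPM of each receptor (vertical axes, linear and starting at 0) in the 4 groups on the horizontal axis. Points are libraries, lines are means and bars are SD (n = 3). Gpr15 and Ccr6 are high in Th17 libraries of either genotype, Cxcr3 is highest in wild-type Th1 libraries, and the deficient points of Cxcr6 all lie above the wild-type points within each lineage.

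The lineage differences of Gpr15, Ccr6 and Ccr4 were present in GLUT3-deficient cells too. In deficient cells Gpr15 stood at 70.2, 87.4 and 70.3 TPM in Th17 and 3.60, 4.95 and 2.03 TPM in Th1, and Ccr6 at 20.2, 19.2 and 17.8 TPM against 2.52, 2.18 and 2.26 TPM. The log2 fold changes of Th17 against Th1 were 4.13 ± 0.27 for Gpr15, 2.60 ± 0.18 for Ccr6, 2.86 ± 0.19 for Ccr4 and 1.73 ± 0.23 for Ccr8, with limma adjusted p-values of 5.13e-06 for the first 3 genes and 0.000658 for Ccr8. These 4 receptors passed and 0 passed in the other direction, where 5.91% of all tested genes passed, 3.35% higher and 2.56% lower in Th17. For 7 of the 9 the groups did not overlap, against 29.7% of all tested genes. Cxcr3 did not pass in deficient cells, at a log2 fold change of -1.08 ± 0.31 (limma adjusted p = 0.0661), although every Th1 library was above every Th17 library. It passed under 6 of 18 alternatives, median-of-ratios scaling (limma adjusted p = 0.0225) among them.

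**Figure D2:**
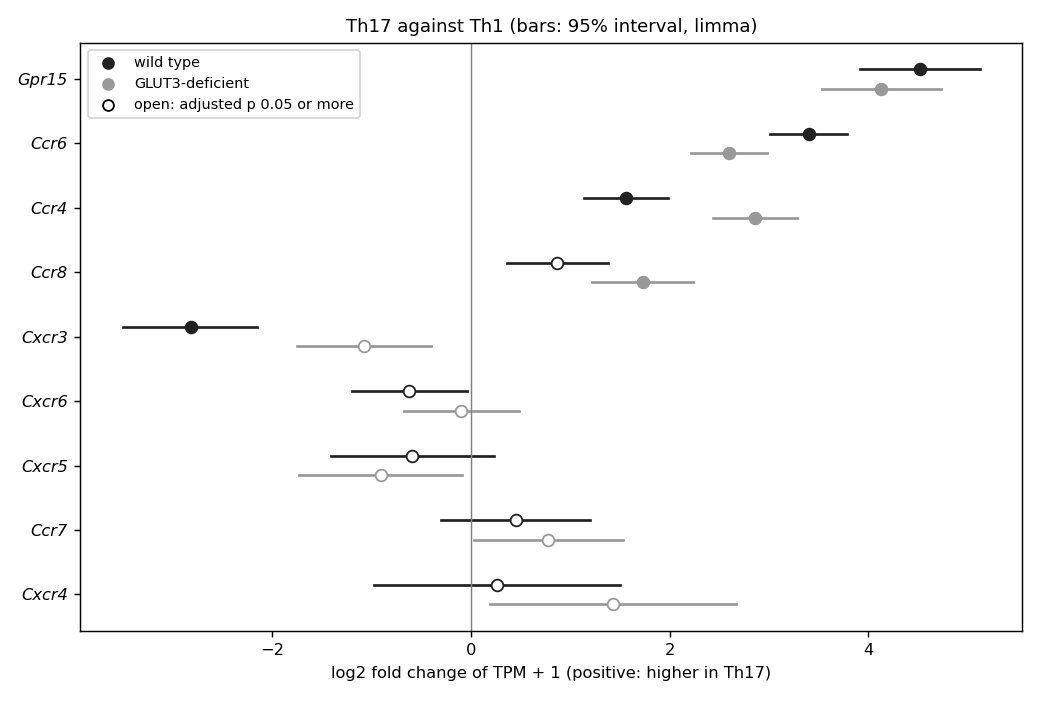
Log2 fold change of Th17 against Th1 on the log2(TPM + 1) scale (horizontal axis; positive is higher in Th17) for each receptor, in wild-type and in GLUT3-deficient cells. Bars are 95% intervals from limma and filled points passed the adjusted threshold. Gpr15 and Ccr6 lie furthest to the right in wild-type cells, at 4.52 and 3.40, and Cxcr3 lies furthest to the left, at -2.82.

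Loss of GLUT3 went with lower Ccr4, Ccr8 and Cxcr3 and higher Cxcr6 in Th1 cells. Ccr4 fell from 25.6, 19.6 and 16.7 TPM to 4.21, 4.67 and 4.54 TPM, a log2 fold change of -1.96 ± 0.19 (limma adjusted p = 0.000201). The deficient libraries were tightly grouped, at 4.48 ± 0.236 TPM (mean ± SD, n = 3). Ccr8 fell from 33.6, 20.3 and 23.5 TPM to 8.67, 9.46 and 14.0 TPM, by 1.19 ± 0.24 on the log2 scale (limma adjusted p = 0.0056).

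Cxcr3, the receptor that marks the Th1 lineage, fell from 47.3, 88.5 and 45.4 TPM to 17.7, 20.9 and 23.3 TPM in Th1 cells. Its log2 fold change was -1.45 ± 0.26 (limma adjusted p = 0.00329), and every deficient library was below every wild-type library. Tbx21, the Th1 regulator known to drive Cxcr3, rose in the same libraries with a log2 fold change of 1.02 (limma adjusted p = 0.00199). In deficient cells the 3 Th1 libraries still held more Cxcr3 than the 3 Th17 libraries, at 17.7 to 23.3 against 7.04 to 10.8 TPM.

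Cxcr6 rose in Th1 cells from 52.3, 54.7 and 49.5 TPM to 91.8, 125.1 and 77.8 TPM, with a log2 fold change of 0.87 ± 0.19 (limma adjusted p = 0.00769). Ccr6 also passed in Th1, by 0.51 ± 0.17 (limma adjusted p = 0.0455), from 1.14 to 1.69 TPM up to 2.18 to 2.52 TPM. That level remained far below the 17.8 to 24.7 TPM of the Th17 libraries. The Ccr6 call was lost in 5 of the 6 fits without 1 library, all but the fit without wild-type replicate 3, with limma adjusted p-values of 0.0298 to 0.156 and log2 fold changes of 0.45 to 0.62, whereas those of Ccr4, Ccr8, Cxcr3 and Cxcr6 held in all 6. It was also lost with a pseudocount of 0.1, without the filter on low TPM and with all 12 libraries.

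In all, 5 of the 9 receptors passed in Th1 cells, 2 higher and 3 lower. Of all 13487 genes tested there 31.3% passed, 17.6% higher and 13.7% lower, so calls were common. For 5 of the 9 the groups did not overlap, against 47.1% of all tested genes. The median log2 fold change of the 9 receptors was -0.76, against 0.03 over all genes. Cxcr5 (log2 fold change -0.87, 95% interval -1.67 to -0.07, limma adjusted p = 0.0925), Cxcr4, Ccr7 and Gpr15 did not pass. Without deficient replicate 2 Cxcr5 did, at a limma adjusted p of 0.0321. Gpr15 stood at 3.28 ± 0.477 and 3.53 ± 1.46 TPM (mean ± SD, n = 3 each).

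In Th17 cells 1 of the 9 receptors passed, where 7.30% of all 13823 tested genes passed and 4.60% were higher. Cxcr6 rose from 35.6, 32.2 and 32.8 TPM to 73.3, 145.2 and 68.5 TPM, a log2 fold change of 1.4 ± 0.31 (limma adjusted p = 0.0407). The highest value was in replicate 2, the library that stood apart. All 3 deficient libraries were above all 3 wild-type libraries. Only the fit without that replicate kept the call among the 6 that dropped a library; their log2 fold changes were 1.06 to 1.59 and their limma adjusted p-values 0.00863 to 0.166. A pseudocount of 5, or no filter on low TPM, ended the call as well.

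Ccr4 and Cxcr5 came closest among the receptors that did not pass in Th17 cells. Ccr4 held 67.4, 60.1 and 58.6 TPM in wild-type and 38.5, 45.2 and 33.4 TPM in deficient libraries, with a log2 fold change of -0.66 and a limma adjusted p of 0.0992. Cxcr5 stood at 5.25, 6.13 and 4.95 TPM and at 1.06, 3.37 and 1.49 TPM, with -1.19 and 0.0753 by limma. For both, the groups did not overlap, and without Th17 GLUT3-deficient replicate 2 limma adjusted p was 0.0285 for Ccr4 and 0.00463 for Cxcr5. Both also passed with all 12 libraries in the fit, and Cxcr5 with median-of-ratios scaling or voom. The deficient libraries held 36 to 62 reads of Cxcr5.

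The remaining Th17 values were closer together. Gpr15, Ccr6 and Ccr8 had log2 fold changes of -0.35, -0.30 and -0.33, and Ccr7, Cxcr3 and Cxcr4 of 0.31, 0.30 and 0.41, all with 95% intervals that included 0. The groups did not overlap for Ccr6 (22.4 to 24.7 against 17.8 to 20.2 TPM) or Ccr8 (42.3 to 53.3 against 31.2 to 41.2 TPM). With Ccr4, Cxcr5 and Cxcr6 that makes 5 of 9 receptors without overlap, against 36.7% of all genes tested.

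**Figure D3:**
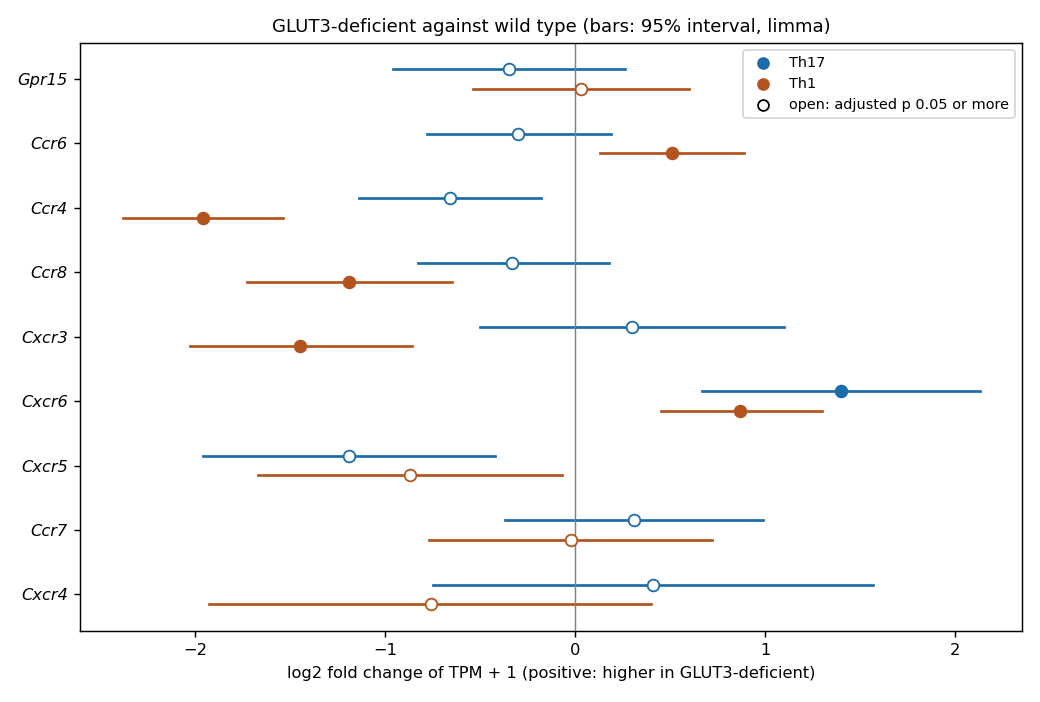
Log2 fold change of GLUT3-deficient against wild-type libraries on the log2(TPM + 1) scale (horizontal axis) for each receptor, in Th17 and in Th1 cells. Bars are 95% intervals from limma and filled points passed the adjusted threshold. Cxcr6 is right of 0 in both lineages, at 1.4 and 0.87, and Ccr4 is left of 0 in both, at -0.66 and -1.96.

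Whether the genotype effect differed between the lineages was tested as an interaction over all 12 libraries. By limma 0 of the 9 receptors passed, and 1 passed by voom on the recovered reads. Of all genes 0.638% passed by limma, 0.35% higher and 0.288% lower. An unadjusted limma p under 0.05 was reached by 4 of the 9 receptors and by 930 of all 14579 tested genes. Ccr4 came closest, with a difference between the effects of 1.30 ± 0.27 on the log2 scale (limma adjusted p = 0.0595). Its limma adjusted p was 0.0436 without Th17 GLUT3-deficient replicate 2 and, by voom, 0.0385. The difference was 1.74 ± 0.44 for Cxcr3 (limma adjusted p = 0.141), 0.86 ± 0.33 for Ccr8 (0.566) and -0.81 ± 0.25 for Ccr6 (0.336). A call in one lineage is therefore not shown to be particular to it.

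Cxcr6 lies inside another gene. Cxcr6 (chromosome 9, 123806477 to 123811754, + strand, GRCm38.p6) lies within the span of Fyco1 (123789500 to 123851899, - strand), which encodes an adaptor for the transport of autophagosomes. In GENCODE M21, of the same build, all 1931 exonic bases of Cxcr6 lie within Fyco1 and 0 of them are exonic in it, so Cxcr6 is intronic to Fyco1 on the opposite strand. Fyco1 stood at 0.894, 1.31 and 0.760 TPM in Th17 wild type and 6.52, 24.4 and 6.56 TPM in Th17 deficient libraries. In Th1 it stood at 0.538, 0.839 and 0.709 TPM and at 3.74, 3.58 and 3.29 TPM.

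Fyco1 therefore rose along with Cxcr6 in both lineages, by 2.52 ± 0.49 in Th17 (limma adjusted p = 0.0287) and 1.42 ± 0.16 in Th1 (limma adjusted p = 0.0004). In Th1 it reached 1 TPM only in deficient libraries. It entered that fit through the group where it was high, so only a rise could be called. Wild-type replicate 2 of Th17, at 1.31 TPM, was the only wild-type library of that lineage to reach 1 TPM. There, too, Fyco1 met the filter only with the deficient libraries, which favours the call of a rise. In Th17 the Fyco1 call, too, was kept only by the fit without deficient replicate 2, among those that dropped a library. Deficient replicate 2 of Th17 held the most of both genes. With unstranded libraries, reads of introns or antisense transcripts cannot be assigned to 1 of the 2 genes, and the part this plays in either value was not tested.

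**Figure D4:**
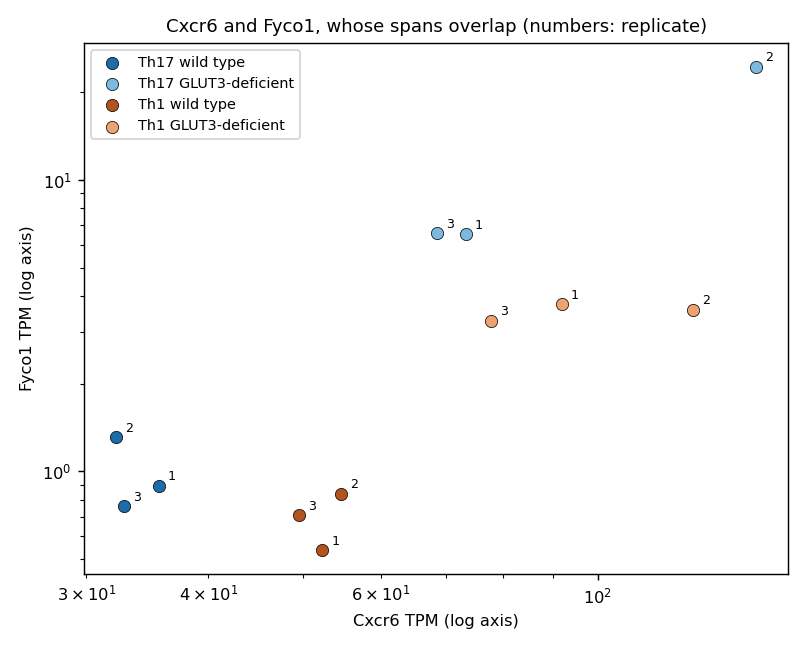
Cxcr6 TPM (horizontal, log axis) against Fyco1 TPM (vertical, log axis) in the 12 libraries, coloured by group and numbered by replicate. The 6 deficient libraries lie at 68.5 TPM or more of Cxcr6 and 3.29 TPM or more of Fyco1, above and to the right of the 6 wild-type libraries.

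The other overlaps concern Cxcr5 and Ccr6. Cxcr5 (chromosome 9, 44511787 to 44526444, - strand) shares 110 exonic bases in GENCODE M21 with Bcl9l on the + strand, which lay at 0.07 to 1.33 TPM and was highest in Th17 GLUT3-deficient replicate 2. Ccr6 (chromosome 17, 8236041 to 8258519, + strand) overlaps the predicted gene Gm33799 on the - strand, which stood at 0.926 to 1.32 TPM in Th17 and 0 to 0.361 TPM in Th1 libraries. The other members overlap no gene of the tables: Ccr4 (chromosome 9, 114490316 to 114505476), Ccr8 (chromosome 9, 120092133 to 120094906), Ccr7 (chromosome 11, 99144199 to 99155077), Cxcr3 (chromosome X, 101731535 to 101734147), Cxcr4 (chromosome 1, 128588199 to 128592299) and Gpr15 (chromosome 16, 58716643 to 58718872).

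Ccr7 was by far the most abundant of the 9 in every group. It held 73.6% to 89.6% of their summed TPM in every library, and its lowest library in each group lay above the highest library of the next receptor. In wild-type Th17 cells it reached 1747, 1049 and 837.3 TPM and in wild-type Th1 cells at 1360, 735.9 and 597.8 TPM. In deficient cells it stood at 1404, 1572 and 1325 TPM in Th17 and 896.2, 571.7 and 1116 TPM in Th1, and genotypes overlapped in both lineages.

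Below Ccr7 the order differed by group. In wild-type Th17 cells it ran Gpr15 (99.4 ± 27.4 TPM, mean ± SD, n = 3), Ccr4 (62.0 ± 4.67), Ccr8 (47.1 ± 5.65), Cxcr6 (33.5 ± 1.82) and Ccr6 (23.6 ± 1.13), each without overlap with the next. Cxcr3, Cxcr4 and Cxcr5 followed at 7.60, 6.86 and 5.44 TPM and overlapped their neighbours. In deficient Th17 cells Cxcr6 (95.7 ± 43.0 TPM) stood above Gpr15 (76.0 ± 9.90 TPM), but the ranges overlapped, as did those of Ccr4 and Ccr8.

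In wild-type Th1 cells Cxcr3 (60.4 ± 24.4 TPM) and Cxcr6 (52.2 ± 2.62 TPM) followed Ccr7 and overlapped each other. In deficient Th1 cells the ranges of Cxcr6 (98.2 ± 24.3 TPM) and Cxcr3 (20.6 ± 2.81 TPM) no longer overlapped. Ccr8 (10.7 ± 2.86 TPM) came next, and Cxcr5, Ccr4, Gpr15, Cxcr4 and Ccr6 followed within 2.32 to 4.73 TPM, each overlapping its neighbour. The ratio of Cxcr6 to Ccr8 within a library was 1.56 to 2.7 in wild-type and 5.57 to 13.2 in deficient Th1 libraries, and 0.668 to 0.763 and 1.66 to 3.64 in Th17. This ratio sets a receptor that rose against 1 that was lower, so it restates those differences. That of Cxcr3 to Ccr4 was 1.85 to 4.51 and 4.19 to 5.12 in Th1, with overlap, and 0.069 to 0.17 and 0.183 to 0.303 in Th17.

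Ccr7 and Cxcr4, like Cxcr5, passed in none of the 5 comparisons by limma. Cxcr4 stood at 12.3, 4.61 and 3.63 TPM in Th17 wild type, 6.2, 14.2 and 6.45 TPM in Th17 deficient, 13.7, 4.01 and 1.74 TPM in Th1 wild type and 2.62, 1.84 and 3.03 TPM in Th1 deficient libraries. Between deficient lineages the groups did not overlap for either gene, with log2 fold changes of Th17 against Th1 of 1.43 ± 0.57 for Cxcr4 and 0.78 ± 0.34 for Ccr7 (unadjusted p = 0.027 and 0.0417, limma adjusted p = 0.187 and 0.225). Among wild-type libraries, replicate 1 held the most Cxcr4 and the most Ccr7 in both lineages. It also held the most Slc2a3, at 379.3 and 397.7 TPM against 44.6 to 109.4 TPM in the other wild-type libraries, so the wild-type libraries are not uniform in the gene that defines the comparison.

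The genotype differences of Ccr7 and Cxcr4 moved with the library left out. In Th1 the log2 fold change of Cxcr4 was -0.76 and ran from -1.31 without wild-type replicate 3 to -0.10 without wild-type replicate 1. That of Ccr7 was -0.02 and ran from -0.27 to 0.32, above 0 without wild-type replicate 1 or deficient replicate 2. In Th17 that of Cxcr4 was 0.41 and ran from 0.06 without deficient replicate 2 to 0.87 without wild-type replicate 1, and that of Ccr7 was 0.31 and ran from 0.08 without wild-type replicate 3 to 0.61 without wild-type replicate 1. None of these fits passed, with limma adjusted p-values of 0.0518 to 0.941. Over the 12 libraries, which share lineage, genotype and replicate numbers, Ccr7 and Cxcr4 had a Pearson correlation of 0.88 on the log2(TPM + 1) scale.

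**Figure D5:**
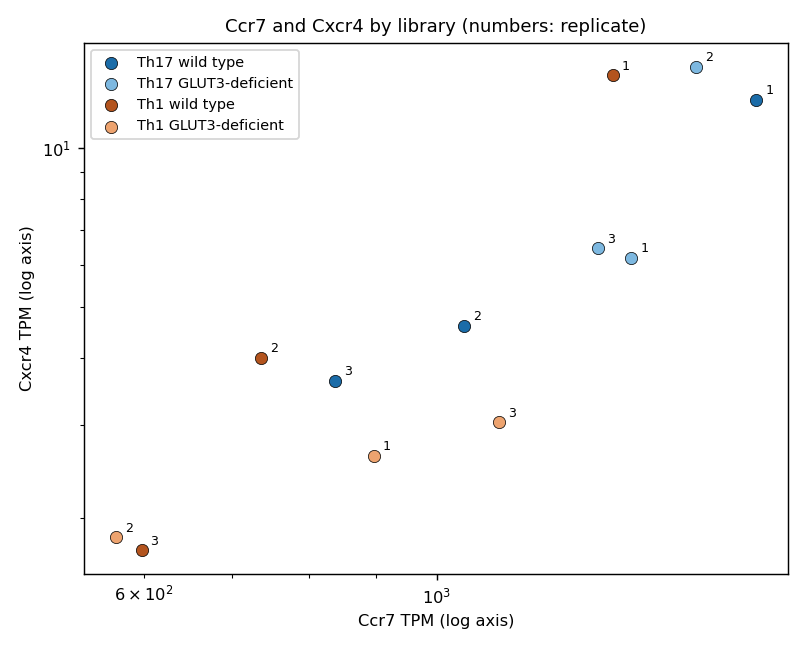
Ccr7 TPM (horizontal, log axis) against Cxcr4 TPM (vertical, log axis) in the 12 libraries, coloured by group and numbered by replicate. Replicate 1 of both wild-type groups and replicate 2 of Th17 GLUT3-deficient cells hold the most Cxcr4, at 12.3 to 14.2 TPM.

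The genes most like each receptor were ranked by Pearson correlation of log2(TPM + 1) over the 12 libraries among 8329 genes averaging at least 5 TPM. Ccr4 and Ccr8 were close to each other (0.969), and Ccr4 was closest to Syt11 (0.983), a synaptotagmin. Ccr8 was next closest to Il16 (0.957). For Ccr6 the closest were the Th17 cytokine gene Il17f (0.992) and Gpr15 (0.983), and for Gpr15 they were Il17f (0.990) and Ccr6. Cxcr3 was closest to Plac8 (0.957) and Ms4a4b (0.926), and Ccr7 to Appl2 (0.956) and Akap8l (0.942). Slfn8 (0.959) was among the 2 closest to Cxcr6. Cxcr4 was closest to the complement gene C3 (0.969) and Gzf1 (0.929), and Cxcr5 to Ppic (0.878) and Znrf2 (0.865). These values describe 12 libraries in 4 groups and carry no test.

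The gene lists that follow are to be read against all tested genes, of which 7.3% passed by genotype in Th17, and 31.3% in Th1. Genes that entered a fit only through the group where they were high are an exception. The ligands of the receptors were mostly absent or low, apart from Ccl20 and Cxcl10. Ccl20, the ligand of CCR6, rose in Th17 cells from 32.2, 36.2 and 53.2 to 423.4, 366.2 and 629.2 TPM, while Ccr6 itself stood at 23.6 ± 1.13 and 19.1 ± 1.21 TPM. Cxcl10, a ligand of CXCR3, rose in Th17 by 1.48 (limma adjusted p = 0.0301), from 21.1 to 29.3 up to 54.4 to 106.8 TPM, and in Th1 cells, where its receptor fell, it stood at 32.0 to 51.9 and 44.4 to 73.4 TPM (limma adjusted p = 0.158). Cxcl11, another ligand of CXCR3, rose by 2.52 in Th17 and by 2.68 in Th1 (limma adjusted p = 0.0121 and 0.00197), to 3.72 to 31.0 TPM. Cxcl16, the ligand of CXCR6, rose along with its receptor, by 1.44 in Th17 and 1.38 in Th1 (limma adjusted p = 0.00995 and 0.000734), from at most 0.221 TPM to 1.33 to 2.41 TPM.

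In all, 4 of 6 tested ligands rose in Th17 and 2 of 4 in Th1, and 0 fell, out of 13 looked up. Cxcl16 in both lineages, and Cxcl11 and Ccl22 in Th17, reached 1 TPM only in deficient libraries. They entered those fits through the group where they were high, so only a rise could be called for them. Ccl22, a ligand of CCR4, stood at 1.15, 4.02 and 3.65 TPM in Th1 wild type and 15.1, 19.2 and 3.08 TPM in Th1 deficient libraries (limma adjusted p = 0.0661). Ccl17 and Cxcl9 stayed under 1 TPM in all libraries, and Ccl1, the ligand of CCR8, reached 3.07 TPM at most. Ccl19, Ccl21a and Cxcl12 were listed at 0 in all 12 libraries, and Cxcl13 reached 0.166 TPM. The ligand gene of GPR15, 2610528A11Rik, reached 6.88 TPM, in Th1 wild-type replicate 1.

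Of 15 other chemokine receptors 7 were tested in each comparison. Ccr3, the eotaxin receptor, rose in both lineages, by 1.47 in Th17 and 1.16 in Th1 (limma adjusted p = 0.0177 and 0.00135). In Th1 the inflammatory receptors Ccr1 (0.94), Ccr2 (0.86) and Cxcr1 (0.79) rose as well, with limma adjusted p-values of 0.0237, 0.00368 and 0.0314, and 0 fell. Between wild-type lineages Cxcr1 (-2.45) and Cxcr2 (-1.68) were lower in Th17 than in Th1 (limma adjusted p = 0.0016 and 0.0045), and both were lower in deficient cells too, at -3.63 and -3.39 (limma adjusted p = 5.69e-05 and 1.94e-05).

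Among 14 genes of adhesion and tissue exit, 13 were tested in each lineage: 2 rose and 1 fell in Th17, and 6 rose and 2 fell in Th1. Of all tested genes 4.6% rose and 2.7% fell in Th17, and 17.6% rose and 13.7% fell in Th1. Itga4, among the 6 that rose in Th1, reached 1 TPM there only in deficient libraries. Fut7, a fucosyltransferase that builds selectin ligands, rose from 33.7, 36.2 and 35.3 to 109.1, 97.8 and 115.0 TPM in Th17 and from 11.4, 15.2 and 8.37 to 60.5, 62.6 and 55.3 TPM in Th1 (limma adjusted p = 0.00546 and 0.000174). Itgb1, the integrin beta 1 chain, rose by 1.85 and 1.27, and Gpr183, a receptor for oxysterols that positions cells in lymphoid tissue, fell by 1.03 and 0.99 (limma adjusted p = 0.0336, 0.00169, 0.0372 and 0.00433). Itgb2, the integrin beta 2 chain, rose in Th1 by 1.15 (limma adjusted p = 0.000565).

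Of 17 transcription factors linked to these receptors, 16 were tested. In wild type, Ahr was higher in Th17 than in Th1, by 2.67 (limma adjusted p = 0.00477), and Tbx21 was lower, at -4.63 (limma adjusted p = 0.000324). In all 5 factors were higher and 1 lower, where 1.85% of all tested genes were higher and 1.78% lower. With GLUT3 loss Klf2, known to sustain genes of lymphoid recirculation, rose in both lineages, by 1.43 and 1.06 (limma adjusted p = 0.0329 and 0.0195), and was the only one of the 16 to pass in Th17. In Th1 4 rose and 2 fell, a share near the 31.3% of all tested genes. Ahr (-1.26) was among those that fell and Maf (1.39) among those that rose (limma adjusted p = 0.00108 and 0.00192). Of 14 genes of receptor signalling and desensitization 0 passed in Th17 by limma. There 2 had an unadjusted p under 0.05, as did 3453 of all 13823 tested genes. In Th1 2 rose and 2 fell, again near the 31.3% of all tested genes. Among these were Rgs2 (-1.19) and Rac2 (0.67), at limma adjusted p-values of 0.0068 and 0.00813.

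Markers of other cells moved with the genotype in the same libraries. Of the 5 gamma delta markers 4 rose in Th17 and 5 in Th1, with median log2 fold changes of 3.12 and 2.90. Among these Trdv4 reached 1 TPM only in deficient libraries and entered the fits through them. Of 8 myeloid markers 4 of 5 tested rose in Th17 and 2 of 2 in Th1. In Th17 Cd14 and S100a8 reached 1 TPM only in deficient libraries, so only a rise could be called for them. Tyrobp also met the filter there only with the deficient libraries, as wild-type replicate 1 alone reached 1 TPM, at 1.14 TPM. The 2 in Th1 were Fcer1g (12.4 to 29.2 TPM in deficient libraries) and Tyrobp (5.05 to 9.16 TPM). Lyz2 reached 2.09 TPM there, and Cd14 and S100a8 stayed under 1 TPM. The sum of the 8 markers went from 9.19 to 9.29 up to 38.6 to 63.0 TPM in Th17 and from 5.51 to 11 up to 20.4 to 40.0 TPM in Th1. The macrophage markers Csf1r, Itgam and Adgre1 stayed under 1 TPM in every library. Adgre1 and S100a8 were at 0 in all Th17 wild-type libraries, Csf1r and Adgre1 in all Th1 wild-type libraries, and S100a8 in all Th1 deficient libraries. Of 7 CD8 and natural killer markers 0 of 4 tested passed in Th17, with 2 at an unadjusted p under 0.05 by limma. Of all 13823 genes tested in Th17, 3453 were under that value. In Th1 2 of these markers rose and 2 fell. Klrd1 (1.72) and Eomes (1.41) rose there, and Cd8a (-0.90) and Cd8b1 (-0.76) fell. Eomes reached 1 TPM only in deficient libraries. The sums of the 7 were 39.8 to 52.3 TPM in wild-type and 56.2 to 96.1 TPM in deficient libraries, although both Cd8 genes fell in Th1. Of 6 B cell markers 1 of 4 tested rose in Th17 and 0 passed in Th1. By limma 2 had an unadjusted p under 0.05 in Th1, as did 5792 of all 13487 genes tested there. The marker that rose in Th17 was Igkc, an antibody light chain gene (limma adjusted p = 0.0369). Sums of the 6 markers were 31.8 to 48.3 TPM in Th17 wild-type and 64.9 to 130.1 TPM in Th17 deficient libraries. They were 30.7 to 52.5 TPM in Th1 wild-type and 32.5 to 365 TPM in Th1 deficient libraries. In the Th1 deficient libraries Igkc stood at 227.8, 327.7 and 29.1 TPM, so replicate 3 lay at the wild-type level. The part of these cells in the receptor levels was not tested.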

How the data were processed

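The authors deposited 2 tables of TPM, 1 per lineage, with decimal commas; TPM summed to 1000000 in every library. Per the labels' protocols, SMART-Seq cDNA was tagged with Nextera XT and read from 1 end, without strand. Tools listed in the submitters' processing notes, with no roles, are STAR 2.7.2b, featureCounts 1.6.4 from Subread, cutadapt, DESeq2 1.24.0 and bcl2fastq 2.20.0.422, on GRCm38.p6. Other numbers deposited by the authors (exon lengths) were used as given. TPM times exon length gave whole reads within 0.02 for 100% of values above 0. A count of 3 reads on 1 kb of exon equal 0.190 to 0.437 TPM, counting error only. No pair of replicates agreed within sampling noise (chi-square per gene 13.1 or more).

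Groups came from titles. A gene entered a fit if 3 of its libraries reached 1 TPM. The test was limma (version 3.58.1, run under R 4.3.3) on log2(TPM + 1) values (mean-variance trend, two-sided, Benjamini-Hochberg, threshold 0.05). Genotypes were compared over the 6 libraries of a lineage, and lineages and the interaction over 12. The log scale understates changes of low genes. The steps were tested on simulated reads. Members and lists were chosen with earlier results of these data known. All members are named, with up to 4 genes per list and comparison by adjusted p, all ligands, overlapping genes and the 2 most similar genes per member. Some genes that this rule names are not reported here. The 3 macrophage markers were singled out after their values were seen.

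Deviations from group means of same-numbered libraries correlated at 0.14, 0.41 and 0.23 between Th17 genotypes and at 0.72, 0.26 and 0.53 between wild-type lineages. Different-numbered libraries correlated at -0.41 to 0.11 and at -0.61 to 0.28. The numbers may therefore mark pairs in these 2 comparisons, on this correlation alone. The main fits took all libraries as unpaired, and the replicate number entered only as an alternative.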

Additional observations from a re-analysis of the deposited data

How the results depend on the processing

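Alternatives were pseudocounts of 0.1 and 5, no filter on low TPM, median-of-ratios scaling, a replicate block, voom on recovered reads, all 12 libraries in the genotype fits, and leaving out each library. The count of receptors called in Th17 by genotype was 1, and 0 with a pseudocount of 5 or no filter, 2 with median-of-ratios scaling or voom, 3 with all 12 libraries, and 0 to 3 without 1 library; the cause was not tested. Without 1 library it was 4 to 5 in Th1, 4 to 6 between wild-type lineages, 4 to 5 between deficient lineages and 0 to 1 for the interaction, where voom called 1.

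Over all genes, 1009 were called in Th17, 2933 with all 12 libraries and 109 to 2158 without 1 library. In Th1 4220 were called, 2568 with all 12 libraries and 2594 to 4587 without 1 library. Between lineages 529 were called in wild type (309 to 1582 without 1 library) and 861 in deficient cells (449 to 1219). The interaction called 93, 44 with a pseudocount of 0.1 and 21 to 171 without 1 library. Among the fits that dropped a library, the highest count came without Th17 GLUT3-deficient replicate 2, except in Th1.

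Signs changed only for receptors that passed nowhere in that comparison: Gpr15 in Th1 (-0.07 by voom, -0.19 to 0.29 without 1 library), Ccr7 in Th1 (-0.27 to 0.32), Cxcr4 between wild-type lineages (-0.29 to 0.92), Cxcr6 between deficient lineages (-0.44 to 0.10) and the Ccr7 interaction (-0.01 to 0.63). Median-of-ratios scaling moved the median of all genes from 0.14 to 0.00 between wild-type lineages and from 0.13 to -0.04 between deficient lineages, and changed no sign among the receptors. With the replicate number as a block, no receptor's call changed between Th17 genotypes or between wild-type lineages. The lineage fits set this block over all 4 groups, also those whose numbers did not pair. The Ccr6 call in Th1 was lost (adjusted p = 0.0627) and Cxcr3 passed between deficient lineages (adjusted p = 0.0203), both by limma. The counts over all genes under the block were 1399, 4479, 580, 960 and 85.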
